A study of Mus musculus with 36 samples.

Results

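Between 12 h and 24 h in medium conditioned by tumors, genes of cell division rose in cultured enteric glial cells (EGCs). The median change of 26 mitosis genes was 1.54 on the log2 scale. It was 0.70 in unstimulated EGCs and 0.74 in medium of healthy colon. For 0 of the 26 did the difference between media pass the test. In the tumor medium another 16 genes of mixed roles fell. Of the 414 genes that the tumor medium induced, 408 did not pass the test in either direction. Neither did 13023 of all 13105 genes tested. The comparison rests on 8 of the 36 libraries of the series, 4 of 24 h and 4 of 12 h, chosen by their labels as EGCs in tumor microenvironment conditioned medium (TME-CM) at these times. All EGCs were wild type primary cells grown as neurospheres from the intestines of embryonic C57BL/6J mice and then differentiated. TME-CM was taken from overnight cultures of digested orthotopic tumors of MC38 cells, a mouse colorectal cancer line, grown in the colon of C57BL/6J mice. The medium therefore carried what tumor, immune and stromal cells release together. Cells in H-CM, medium conditioned in the same way by digested healthy colon, and unstimulated EGCs without conditioned medium served as the background of time in culture, with 4 libraries per group at each time. No label says that the 4 libraries of a group came from separate cultures, so the p-values measure the spread between these libraries, which may be technical.

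Enteric glia are the supporting cells of the gut's own nervous system, and under inflammatory cues they release cytokines and chemokines that draw and shape myeloid cells. Inflammatory genes of this kind are switched on mainly by NF-kB, and by interferon through STAT factors. Many are known for a short burst, because NF-kB induces its own inhibitors and their messages decay fast, whereas acute phase proteins such as serum amyloid A build up over a longer time. Division genes follow another order: genes of DNA synthesis are induced before S phase by E2F, and those of mitosis peak later under a complex that binds the CHR element and CCAAT boxes near their starts.

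The 12 h libraries held 2756415 to 4942962 counts and the 24 h libraries 2895248 to 6296652, and 13105 of the 43472 genes in the table had enough counts to be tested. Levels are CPM, counts scaled to a common library total, on TMM-scaled library sizes. The libraries are 3′ tag counts that are not scaled by transcript length, so levels are not compared between genes. TME-CM 12 h replicate 2, H-CM 12 h replicate 3 and unstimulated 12 h replicate 2 stood apart from their groups, and 127 genes in place of 82 were called without these 3. The share of counts on one entry, Yam1, was 16.9% to 35.0% at 12 h and 13.7% to 35.1% at 24 h, highest in 24 h replicate 2. The glial markers Sparcl1 and S100b were present in all 8 libraries, and the summed level of the 19 glial markers tested was 1341 to 1556 CPM at 12 h and 1099 to 1406 CPM at 24 h. None of these 19 was called. The 17 neuron markers tested summed to 1074 to 1213 and 902 to 1358 CPM, and the 9 fibroblast markers to 2222 to 2878 and 2444 to 3373 CPM. The 13 macrophage markers tested summed to 118 to 517 and 96.7 to 458 CPM, so that markers of these types were present at both times. Only 2 of 9 epithelial and 4 of 9 endothelial markers had enough counts to be tested. Their sums were at most 4.28 CPM and 47.6 CPM. Among the untested ones, Vil1, Cdx2 and Cldn5 were at 0 in all 8 libraries. In such bulk libraries a change in the share of cells of a type and a change of RNA per cell cannot be told apart.

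Across all genes, 82 changed between 12 h and 24 h of TME-CM (0.626% of the genes tested, edgeR's quasi-likelihood test, Benjamini-Hochberg adjusted p under 0.05, called below). Of these, 66 were higher at 24 h (0.504%) and 16 were lower (0.122%). The 4 libraries of one time lay wholly above those of the other for 74 of the 82. The 82 were called on these same libraries, so this is a description. Over all genes tested, 24 h lay wholly above 12 h for 422 (3.22%) and wholly below it for 307 (2.34%). Of the 82, 57 rose and 10 fell by at least 1 on the log2 scale. At an unadjusted p under 0.05, 610 genes were higher (4.65%) and 424 lower (3.24%). Over the same hours 2 genes were called in unstimulated EGCs (0.0153%, Tef higher and the metallothionein Mt2 lower) and 1 in H-CM EGCs (0.00763%, Hmgb2 higher), with 694 (5.30%) and 817 (6.23%) at an unadjusted p under 0.05. The number of calls depended on the libraries and the fit: without TME-CM 24 h replicate 4 it was 43, and a fit of all 36 libraries, which brings in those of 6 h with as few as 13518 counts, called 2.

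**Figure D1:**
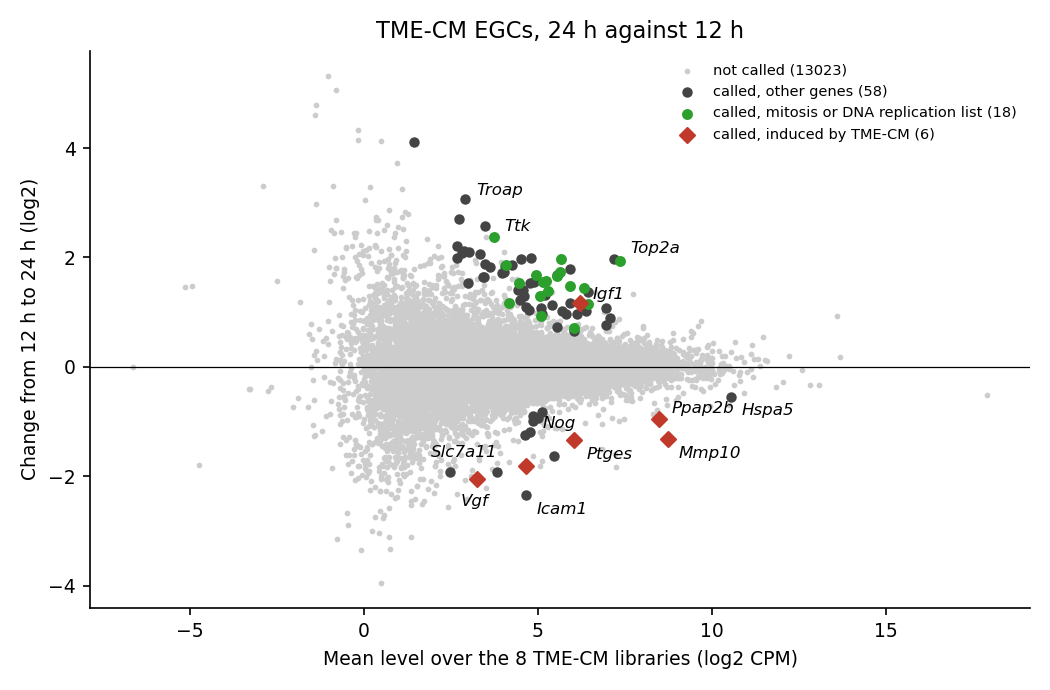
Change from 12 h to 24 h of TME-CM (y axis, log2) against the mean level over the 8 libraries (x axis, log2 CPM) for the 13105 genes tested. Each point is a gene: grey points were not called, green points are called genes of the mitosis and DNA replication lists, red diamonds are the 6 called genes that TME-CM induces, and black points are the other called genes. The 18 called genes of the cell cycle lists all lie on the upper side, and the induced genes that were called lie on the lower side except Igf1.

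Genes of cell division led the genes that rose, with 18 of the 66 on the mitosis and DNA replication lists. Of 26 mitosis genes tested, 15 rose and 0 fell, 26 of 26 had a positive estimate, and the median change was 1.54 on the log2 scale, against -0.01 over all genes tested. Of 26 DNA replication genes, 3 rose (Rrm1, Ccne1 and Mcm3), 25 had a positive estimate and the median was 0.71. The other 48 genes that rose include further parts of the same machinery, such as the condensin subunits Smc2, Smc4 and Ncapd2, the kinetochore proteins Spc24 and Spc25, the DNA polymerase subunit Pola1, the DNA ligase Lig1 and the maintenance methyltransferase Dnmt1, which stand outside both lists and were picked after their values were seen.

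The summed level of the 26 mitosis genes was 423, 476, 401 and 476 CPM in the 12 h libraries and 1345, 819, 1214 and 1784 CPM in those of 24 h. All 24 h libraries lay above all 12 h libraries, and replicate 2 of 24 h was the lowest and replicate 4 the highest. The same sum was 572 to 637 CPM in the 6 h libraries of TME-CM, so that 12 h held the lowest values of the 3 times, although the 6 h libraries entered no test of this. In unstimulated EGCs it was 508 to 598 CPM at 12 h and 827 to 1044 at 24 h, and in H-CM EGCs 422 to 639 and 822 to 1009. The medians of these 2 media were also higher at 6 h, 627 and 736 CPM, than at 12 h, 541 and 531 CPM. At 6 h the values ran from 536 to 1604 CPM unstimulated and from 578 to 835 CPM in H-CM, with shallow libraries among them. The sum of the 26 DNA replication genes was 500 to 757 CPM at 12 h and 859 to 1113 at 24 h of TME-CM, against 489 to 596 and 781 to 858 unstimulated and 485 to 606 and 685 to 874 in H-CM.

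Higher values at 24 h were thus measured in all 3 media. The median change of the mitosis list was 0.70 in unstimulated and 0.74 in H-CM EGCs, with 16 and 15 of its 26 genes higher at an unadjusted p under 0.05 (2.87% and 2.76% of all genes tested) and 0 called. The difference between the changes was tested gene by gene. For TME-CM minus unstimulated the list's median was 0.71, with 12 of 26 genes higher at an unadjusted p under 0.05 (1.81% of all genes tested) and 0 called. For TME-CM minus H-CM it was 0.72, with 9 of 26 (1.87% of all genes tested) and 0 called. These comparisons share the TME-CM libraries, so their counts are not independent of each other. In TME-CM, 24 h replicate 2, which held the lowest mitosis sum, also had the highest Yam1 share. With Yam1 left out of the counts 82 genes were called, 15 of them on the mitosis list, and 90 genes were called without this library.

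The promoters of Top2a and Plk1 are shown because they hold the CHR and CCAAT elements named above. Plk1 was picked after its values were seen. Top2a lies at chr11:98992943-99024189 on the minus strand of GRCm38 and Plk1 at chr7:122159439-122169873 on the plus strand, and all positions given here are of this build. Top2a shares 122 of its 9013 exon bases with Gm23451 on the same strand. Both sequences are RefSeq promoters of GRCm38.p6, from 250 bases before the start to 50 after it, at chr11:99024140-99024439 (minus strand) and chr7:122159185-122159484 (plus strand). Capitals mark matches to TTTGAA (CHR) and CCAAT on either strand.
Top2a: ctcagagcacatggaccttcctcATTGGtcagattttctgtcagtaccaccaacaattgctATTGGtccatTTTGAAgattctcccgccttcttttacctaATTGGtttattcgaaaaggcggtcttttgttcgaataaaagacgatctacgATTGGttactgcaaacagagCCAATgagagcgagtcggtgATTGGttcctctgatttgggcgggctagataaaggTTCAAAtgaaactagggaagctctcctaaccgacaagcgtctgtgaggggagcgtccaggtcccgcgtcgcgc
Plk1: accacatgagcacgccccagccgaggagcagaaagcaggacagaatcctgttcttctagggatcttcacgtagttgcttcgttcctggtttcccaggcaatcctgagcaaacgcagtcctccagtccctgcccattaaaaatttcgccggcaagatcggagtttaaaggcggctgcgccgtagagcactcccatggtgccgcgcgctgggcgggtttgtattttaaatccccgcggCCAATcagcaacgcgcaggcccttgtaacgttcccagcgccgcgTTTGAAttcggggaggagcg
Top2a holds 2 matches to TTTGAA and 6 to CCAAT, and Plk1 1 of each. Both motifs were chosen after earlier results of these data were known. Among the 54 of the 66 genes that rose with a RefSeq promoter, TTTGAA was present in 32 (59.3%) and CCAAT in 40 (74.1%), against 11.5% and 38.4% of the 9896 tested genes with a promoter and 18.1% and 37.9% of all 27025 promoters of this length. In the mitosis list, TTTGAA was present in 17 of 23 promoters (73.9%), and in the DNA replication list in 2 of 20 (10%). CCAAT was present in 21 of 23 (91.3%) and 13 of 20 (65%). The promoters of genes that fell also held them, TTTGAA in 5 of 13 (38.5%) and CCAAT in 6 of 13 (46.2%). A match is a description of these letters in the window and not a site of binding.

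Top2a, the topoisomerase that untangles DNA in dividing cells, had 73.5, 56.0, 76.8 and 66.6 CPM at 12 h and 269, 133, 260.2 and 381 CPM at 24 h. The times did not overlap, with 24 h replicate 2 again the lowest of its group, and the change was 1.93 on the log2 scale (SE 0.21, adjusted p = 1.63e-06). It was called under every alternative and with every library left out in turn, the only one of the 29 named genes that were called for which this held. Its change was 0.73 in unstimulated and 0.81 in H-CM EGCs, and the difference from unstimulated was 1.20 (SE 0.29, adjusted p = 0.271). At 24 h it was 0.76 above unstimulated (adjusted p = 0.014) and 0.70 above H-CM (adjusted p = 0.046).

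Plk1, the kinase that drives entry into mitosis and spindle assembly, had 15.3, 25.5, 14.8 and 21.7 CPM at 12 h and 50.8, 32.1, 54.9 and 88.0 CPM at 24 h, a rise of 1.58 (SE 0.27, adjusted p = 0.00163). Cdk1, the kinase at the centre of mitotic entry, had 37.0, 40.3, 42.7 and 52.5 CPM and then 115, 90.7, 108 and 155 CPM, a rise of 1.44 (SE 0.27, adjusted p = 0.00418). Neither gene's times overlapped, and for both the lowest 24 h value was that of replicate 2. Cdk1, like Plk1, was picked after its values were seen. Plk1 shares 156 of its 2199 exon bases with Gm44985 on the opposite strand, and as no source used here says whether counting used strand, reads of such pairs cannot be told apart. Ttk, a kinase of the spindle checkpoint at chr9:83834689-83872389, had 7.53, 0.849, 5.28 and 2.94 CPM and then 23.1, 15.0, 21.6 and 30.9 CPM. Its times did not overlap either, and the rise of 2.37 (SE 0.40, adjusted p = 0.00111) stood beside changes of 0.32 in unstimulated and 0.23 in H-CM EGCs. The difference from unstimulated, 2.06 (SE 0.54), did not pass the test (adjusted p = 0.624).

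Birc5, the survivin subunit of the chromosomal passenger complex, had 19.0, 42.0, 17.8 and 15.5 CPM at 12 h and 72.8, 46.0, 75.6 and 111 CPM at 24 h (1.73, SE 0.26, adjusted p = 0.000288). Here the highest 12 h value and the lowest 24 h value, both of replicate 2, lay close to each other. Birc5 too was picked after its values were seen. Mki67, the widely used proliferation marker, had 15.1, 13.6, 7.93 and 5.62 CPM and then 44.6, 7.32, 28.8 and 44.8 CPM. Its times overlapped through 24 h replicate 2, and it did not pass the test (1.61, SE 0.42, adjusted p = 0.0832), while without that library it did (1.92, adjusted p = 0.00366). The steepest rises by the rule for named genes were those of Troap (3.07, SE 0.62, adjusted p = 0.00781), Aunip (2.71, SE 0.61, adjusted p = 0.0237) and Iqgap3 (2.58, SE 0.52, adjusted p = 0.00848). Troap, a protein of the spindle, had 1.99, 0.424, 1.76 and 1.87 CPM at 12 h and 10.3, 15.9, 15.2 and 12.8 CPM at 24 h. Low counts thus stand behind its fold, and its times did not overlap. Also among the 10 steepest were the centriole protein Sass6 (2.21), Fam64a (2.12), the microtubule-depolymerizing kinesin Kif2c (2.10), the kinetochore protein Spc24 (2.08) and the cell cycle repressor E2f8 (2.06), of which Sass6, Kif2c and Spc24 were not called when the 8 libraries were fitted alone (adjusted p = 0.143, 0.115 and 0.143).

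Of the DNA synthesis genes, Rrm1, the large subunit of ribonucleotide reductase at chr7:102441695-102469771, had 51.1, 39.9, 62.3 and 63.2 CPM at 12 h and 127, 92.3, 128 and 133 CPM at 24 h. It rose by 1.15 (SE 0.22, adjusted p = 0.00482) with no overlap, beside changes of 0.63 unstimulated and 0.87 in H-CM. Ccne1, the cyclin of S phase entry, had 24.1, 23.3, 17.2 and 29.4 CPM and then 50.5, 39.0, 41.1 and 49.0 CPM (0.94, SE 0.21, adjusted p = 0.0246). All its 24 h values lay above those of 12 h, and its change was as large in unstimulated EGCs (1.01). Mcm3, a subunit of the replicative helicase, rose by 0.70 (SE 0.17, adjusted p = 0.0423), from 46.3, 48.8, 45.8 and 59.9 CPM to 85.1, 70.4, 78.3 and 92.6 CPM. Ccne1 and Mcm3 were not called when only the 8 libraries of TME-CM were fitted (adjusted p = 0.0808 and 0.103).

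**Figure D2:**
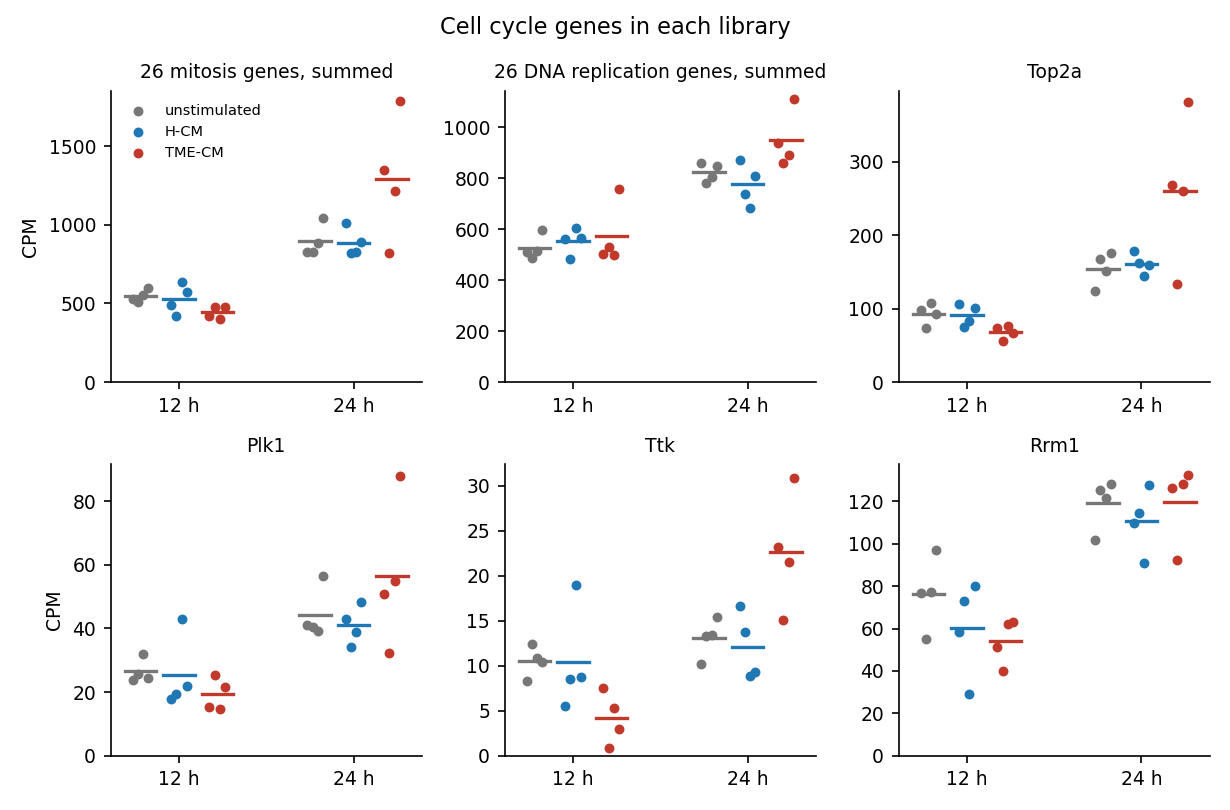
Summed CPM of the 26 mitosis and 26 DNA replication genes tested, and CPM of Top2a, Plk1, Ttk and Rrm1, in each library (points) at 12 h and 24 h, with bars at the mean of 4 libraries, for unstimulated, H-CM and TME-CM EGCs. The mitosis sum reached 819 to 1784 CPM at 24 h of TME-CM from 401 to 476 CPM at 12 h, and stood at 822 to 1044 CPM at 24 h in the other media.

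The genes induced by TME-CM were chosen by a measure that leaves the 24 h against 12 h difference out: a higher mean of TME-CM 12 h and 24 h than of H-CM and of unstimulated EGCs at these times, with an adjusted p under 0.05 in both. This held for 414 genes (3.16% of those tested). Of them 408 were not called between 12 h and 24 h, 5 fell (Vgf, Slc7a11, Ptges, Mmp10 and Ppap2b) and 1 rose (Igf1). Calls of a fall made up 1.21% of the 414, against 0.122% of all genes tested. Calls of a rise made up 0.242%, against 0.504%. The estimates leaned downward, with 259 negative, 155 positive and a median of -0.10, against -0.01 over all genes tested. At an unadjusted p under 0.05, 46 of the 414 were lower at 24 h (11.1%, against 3.24% of all genes tested) and 31 higher (7.49%, against 4.65%). In 38 the 24 h libraries lay wholly below those of 12 h (9.18%, against 2.34%), and in 26 wholly above (6.28%, against 3.22%). The change lay within 0.5 of 0 for 275 genes (66.4%, against 77.4%).

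All 414 had a higher estimate than H-CM at 24 h as well, a direction that the way they were chosen favours. Compared with H-CM at a single time, 240 of the 414 were called higher at 12 h (58%, against 2.09% of all genes tested). At 24 h it was 204 (49.3%, against 1.70%). The 414 were chosen on these same libraries, so the choice favours such calls too. The call of a fall or a rise is sensitive to the fit: the number of induced genes called was 2 without TME-CM 24 h replicate 3, 2 without TME-CM 24 h replicate 4, 10 without H-CM 12 h replicate 3 and 12 in a fit of the 8 libraries alone.

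**Figure D3:**
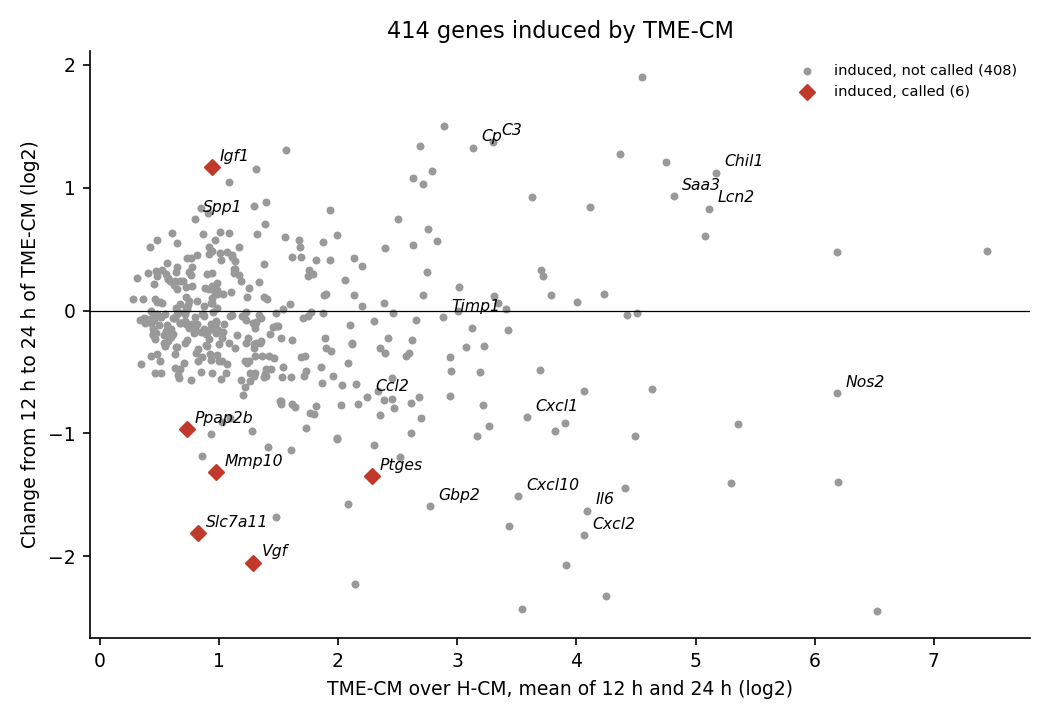
Change from 12 h to 24 h of TME-CM (y axis, log2) against the level in TME-CM over H-CM, taken over both times (x axis, log2), for the 414 induced genes. Red diamonds are the 6 genes called between the times and grey points the 408 others. Most points lie near 0, Slc7a11, Vgf, Ptges, Mmp10 and Ppap2b lie below it, and Saa3, Lcn2 and Cp lie above it without a call.

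The induced genes that fell act in redox balance, prostaglandin synthesis, matrix breakdown and lipid signalling. Slc7a11, the cystine importer that feeds glutathione synthesis at chr3:49892526-50443614 (minus strand), had 59.8, 20.8, 40.1 and 38.3 CPM at 12 h and 8.23, 4.47, 14.2 and 17.5 CPM at 24 h. All 24 h values lay below those of 12 h, and it fell by 1.81 on the log2 scale (SE 0.35, adjusted p = 0.00518). Its mean was 15.9 CPM at 12 h and 9.13 CPM at 24 h in H-CM, and 3.85 and 5.66 CPM unstimulated. It was 1.33 above H-CM at 12 h (adjusted p = 0.021) and 0.31 above it at 24 h (adjusted p = 0.94). The difference from the change in unstimulated EGCs was -2.37 (SE 0.54, adjusted p = 0.235).

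Ptges, which makes prostaglandin E2 from the product of the cyclooxygenases and lies at chr2:30889471-30929863, had 95.6, 86.6, 70.0 and 125 CPM at 12 h and 39.4, 30.5, 37.9 and 39.8 CPM at 24 h. The 24 h libraries lay close together and below all of 12 h (-1.35, SE 0.32, adjusted p = 0.0398). Ptges lost its call in 8 of 17 alternative fits. Among them were those without any single 24 h library of TME-CM and without 12 h replicate 1, 2 or 4. In H-CM its mean moved from 19.6 to 7.61 CPM, an estimate of -1.33 that was not called, so that TME-CM was above H-CM by 2.29 at 12 h (adjusted p = 5.5e-05) and by 2.28 at 24 h (adjusted p = 0.00011). Ptges was the 1 gene called of 12 prostaglandin genes tested (median -0.08).

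Mmp10, the matrix protease stromelysin-2 at chr9:7502352-7510240, had 664, 552, 505 and 707 CPM at 12 h and 278, 279, 198 and 221 CPM at 24 h. The times did not overlap, and the fall was 1.32 on the log2 scale (SE 0.26, adjusted p = 0.0107). The means moved from 326 to 117 CPM in H-CM (-1.48, adjusted p = 0.0562) and from 130.1 to 64.9 CPM unstimulated (-1.01), changes of like size that were not called, and at 24 h TME-CM stood 1.06 above H-CM (adjusted p = 0.021). Mmp10 was the 1 gene called of 19 matrix proteases and inhibitors (median -0.06).

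Vgf, a secreted neuropeptide precursor at chr5:137026392-137033351, had 17.7, 22.9, 12.1 and 9.10 CPM at 12 h and 3.88, 1.63, 5.36 and 3.43 CPM at 24 h (-2.05, SE 0.50, adjusted p = 0.0421). It did not overlap between the times, and its estimates in the other media were also negative (-1.71 unstimulated and -1.03 in H-CM). Vgf lost its call in 9 of 17 alternative fits. Among them were those without any single 24 h library of TME-CM and without 12 h replicate 1, 2 or 3. Ppap2b, now named Plpp3, a membrane phosphatase that degrades lysophosphatidic acid and lies at chr4:105157347-105232764, had 534, 344, 511 and 495 CPM and then 262, 179, 228 and 298 CPM. It fell by 0.96 (SE 0.19, adjusted p = 0.00592) with no overlap, while its means were 214 and 193 CPM in H-CM and 162 and 149.8 CPM unstimulated. It was 1.14 above H-CM at 12 h (adjusted p = 0.00022) and 0.32 above it at 24 h (adjusted p = 0.65).

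The promoters of Slc7a11 and Mmp10 are shown because each holds elements of a stress or activation response. They are RefSeq promoters of GRCm38.p6 at chr3:50443564-50443863 (minus strand) and chr9:7502092-7502391 (plus strand). Capitals mark matches on either strand to TGATGNAA, the element read by ATF4 under amino acid shortage, and to TGANTCA, the AP-1 element.
Slc7a11: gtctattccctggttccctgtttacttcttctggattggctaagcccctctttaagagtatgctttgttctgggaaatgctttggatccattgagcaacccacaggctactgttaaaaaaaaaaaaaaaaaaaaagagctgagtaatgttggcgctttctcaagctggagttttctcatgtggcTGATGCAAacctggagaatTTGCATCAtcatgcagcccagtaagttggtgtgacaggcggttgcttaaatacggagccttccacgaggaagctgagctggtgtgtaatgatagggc
Mmp10: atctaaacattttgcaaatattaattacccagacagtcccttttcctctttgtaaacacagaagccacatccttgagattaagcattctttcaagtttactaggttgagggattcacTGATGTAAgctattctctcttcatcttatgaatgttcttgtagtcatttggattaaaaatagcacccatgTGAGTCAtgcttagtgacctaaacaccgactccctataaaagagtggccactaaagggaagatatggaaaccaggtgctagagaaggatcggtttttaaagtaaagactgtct
Slc7a11 holds 2 matches to TGATGNAA in opposite directions, and Mmp10 holds 1 match to it and 1 to TGANTCA. TGATGNAA was chosen after earlier results were known. Of the 13 promoters found for the 16 genes that fell, 3 held it (23.1%) and 3 held TGANTCA (23.1%), against 2.05% and 4.76% of tested genes. Slc7a11 and Hspa5 were the 2 genes called, both lower, of 23 genes of the amino acid and ER stress response (median -0.25), and 8 of the 23 were lower at an unadjusted p under 0.05 (3.24% of all genes tested). In H-CM the median of the list was -0.31, with 6 of 23 lower at that threshold (455 of all 13105 genes tested). In unstimulated EGCs it was 0.11, with 3 of 23 lower (318 of all 13105). Hspa5, the main chaperone of the endoplasmic reticulum, had 1984, 1632, 1856 and 1630.0 CPM and then 1318, 1151, 1273 and 1128 CPM (-0.54, SE 0.12, adjusted p = 0.0261). The times did not overlap, its change was -0.58 in unstimulated and -0.37 in H-CM EGCs, and it was not called when the 8 libraries were fitted alone (adjusted p = 0.0767).

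Icam1, the adhesion molecule that NF-kB induces for binding of leukocytes, fell furthest of the genes named here. It had 37.6, 54.3, 43.8 and 33.2 CPM at 12 h and 6.52, 12.2, 8.68 and 6.51 CPM at 24 h (-2.34, SE 0.49, adjusted p = 0.0136). The times did not overlap, and the 24 h mean of 8.48 CPM was near the 6.41 CPM of H-CM at 24 h, where the 12 h mean was 17.3 CPM, and above 2.39 CPM unstimulated. At 6 h of TME-CM its mean was 73.5 CPM. Icam1 is not among the 414 because its mean over both times did not pass against H-CM (adjusted p = 0.18), and 511 of its 4360 exon bases, at chr9:21015985-21028817, are shared with Gm47079 on the opposite strand. It was the 1 gene called of the 25 genes of the NF-kB feedback and immediate early list, of which 19 had a negative estimate (median -0.22).

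Nog, Sprr1a, Nnat, Col14a1, Ogn and Fbln5 fell, and their mean over both times was below H-CM and unstimulated EGCs. That mean includes the 24 h values. At 12 h alone, their estimated levels relative to H-CM ran from 0.387 (Sprr1a) to 0.833 (Col14a1). Nog, a secreted inhibitor of bone morphogenetic proteins, at chr11:89300638-89302332, had 33.9, 33.1, 40.3 and 43.4 CPM at 12 h and 13.4, 21.6, 16.4 and 15.7 CPM at 24 h (-1.19, SE 0.21, adjusted p = 0.00265). The times did not overlap, and the means of the other media were 79.0 to 86.7 CPM at both times. At 24 h it stood 2.27 below H-CM on the log2 scale (adjusted p = 1.9e-08), and the difference of its change from that in unstimulated EGCs, -1.26 (SE 0.29), was not called (adjusted p = 0.235). Also lower were the secreted or matrix proteins Igfbp6 (-1.91, adjusted p = 0.0098), Col14a1 (-1.25, adjusted p = 0.0112), Ogn (-0.99, adjusted p = 0.0295) and Fbln5 (-0.94, adjusted p = 0.032), of which Fbln5 overlapped between the times. The remaining ones were Sprr1a (-1.93, adjusted p = 0.0142), Nnat (-1.63, adjusted p = 0.0175), the transcription factor Atoh8 (-0.90, adjusted p = 0.0275) and the mitochondrial enzyme Pck2 (-0.83, adjusted p = 0.0472). Sprr1a and Col14a1 were not called in the 8 libraries alone (adjusted p = 0.129 and 0.0729). In H-CM all 16 genes that fell had a negative estimate (median -0.68) with 0 called, and unstimulated 11 of 16 did (median -0.31).

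Igf1 was the 1 induced gene that rose. This growth factor, at chr10:87858265-87937042, had 45.6, 37.3, 62.7 and 36.7 CPM at 12 h and 139.9, 76.5, 114 and 80.4 CPM at 24 h. The times did not overlap, and the rise was 1.17 (SE 0.24, adjusted p = 0.00781), with changes of -0.12 in unstimulated and 0.52 in H-CM EGCs that were not called. It was 0.61 above H-CM at 12 h (adjusted p = 0.18) and 1.27 above it at 24 h (adjusted p = 0.00096), and the difference between its change and that in unstimulated EGCs, 1.29, was not called (adjusted p = 0.624). Outside cell division and Igf1, the rising genes include Dlc1 (0.66, SE 0.16, adjusted p = 0.0472), and Lurap1l (1.64, SE 0.30, adjusted p = 0.00339). Dlc1 and Lurap1l were picked after their values were seen. Both belong to the 354 genes that TME-CM held below the other media (2.70%), of which 2 rose and 6 fell. Of all 13105 genes tested, 66 rose (0.504%) and 16 fell (0.122%).

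**Figure D4:**
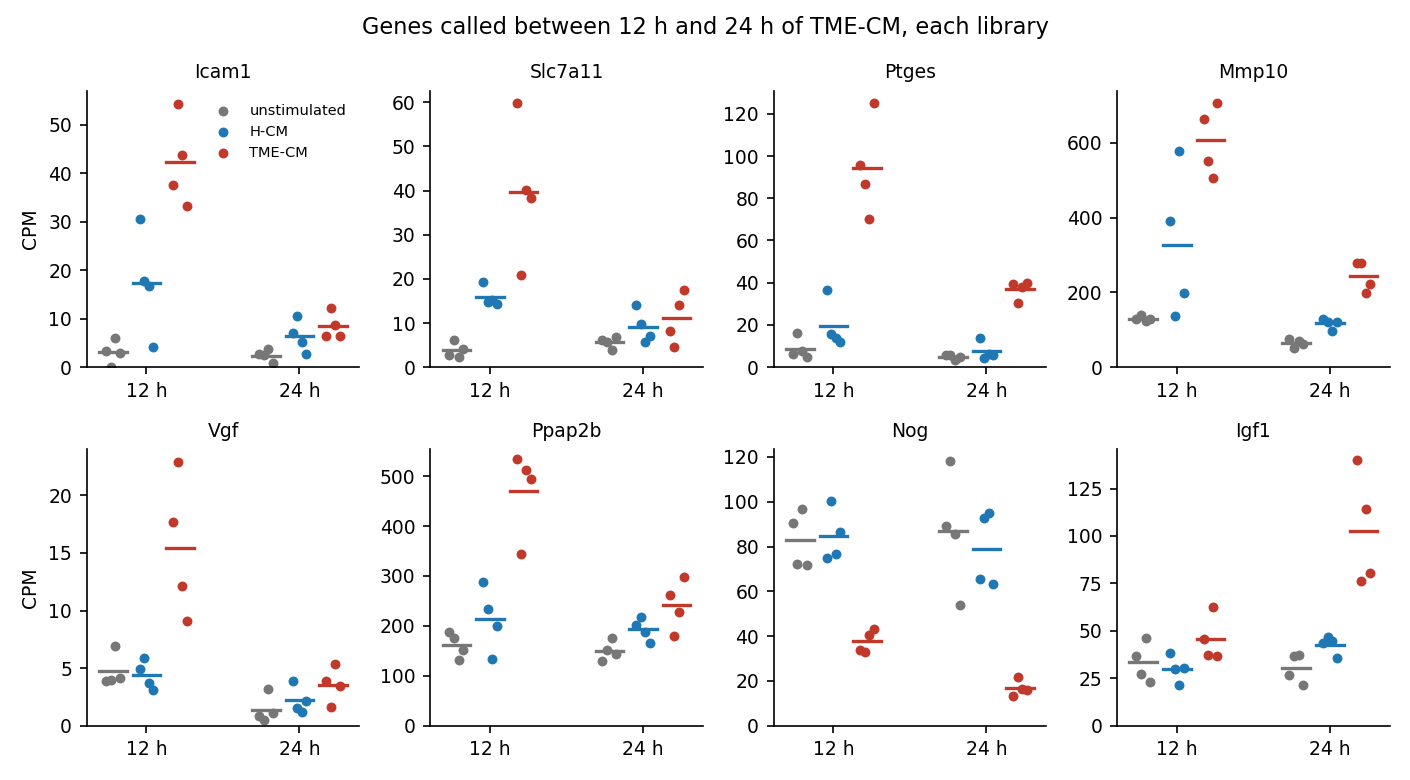
CPM of Icam1, Slc7a11, Ptges, Mmp10, Vgf, Ppap2b, Nog and Igf1 in each library (points) at 12 h and 24 h, with bars at the mean of 4 libraries, for unstimulated, H-CM and TME-CM EGCs. In TME-CM the 4 libraries of 24 h lie below those of 12 h for the first 7 genes and above them for Igf1, and Slc7a11, Icam1 and Ppap2b come close to the H-CM values at 24 h.

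Most chemokine and cytokine genes that mark the response to TME-CM had lower estimates at 24 h but did not pass the test. Cxcl10, a chemokine for T cells, had 39.4, 173, 258 and 210.3 CPM at 12 h and 23, 68.7, 70.9 and 76.8 CPM at 24 h (-1.51, SE 0.56, adjusted p = 0.415). Its times overlapped through replicate 1, the lowest library at both, and the other 3 libraries of 24 h lay below the other 3 of 12 h. Il6 had 41.4, 34.8, 41.0 and 58.6 CPM and then 24.7, 10.2, 10.1 and 11.4 CPM, with no overlap (-1.63, SE 0.58, adjusted p = 0.334). It was called when the 8 libraries were fitted alone (adjusted p = 0.0175). Cxcl2, a neutrophil chemokine picked after its values were seen, had 265, 93.8, 239 and 359 CPM and then 89.5, 28.5, 50.8 and 98.9 CPM, with a slight overlap (-1.83, SE 0.49, adjusted p = 0.117).

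Cxcl1, of the same family, had 412, 244, 369 and 631 CPM at 12 h and 260.4, 166, 186 and 296 CPM at 24 h, which overlap (-0.87, SE 0.43, adjusted p = 0.659). Ccl2, the main chemokine for monocytes, had 1381, 1124, 1804 and 2858 CPM and then 1285, 980.2, 1043 and 1087 CPM, which overlap as well (-0.71, SE 0.43, adjusted p = 0.769). Both stayed far above H-CM at 24 h, by 3.71 for Cxcl1 (adjusted p = 0.00011) and by 2.18 for Ccl2 (adjusted p = 0.0067). Of the 9 CC chemokines tested 8 had a negative estimate and 0 were called (median -0.997, with -0.04 unstimulated and -0.20 in H-CM), and of the 4 CXC chemokines of the interferon response 4 did (median -1.06, with -1.14 unstimulated and -0.57 in H-CM). Unstimulated means of Cxcl9, Cxcl10 and Cxcl11 were at most 1.23 CPM at either time, so the median of -1.14 rests on few counts. The 4 neutrophil CXC chemokines, 2 with a positive and 2 with a negative estimate, had a median of -0.40 (-0.02 unstimulated and -1.13 in H-CM). Unstimulated, Cxcl1, Cxcl2, Cxcl5 and Ppbp had means of at most 1.71 CPM at either time. Cxcl5 among them had means of 205 CPM at 12 h and 214 CPM at 24 h (0.06, adjusted p = 0.991). The 14 cytokines and growth factors, 10 with a negative estimate and 4 with a positive one, had a median of -0.35 (-0.34 unstimulated and -0.27 in H-CM). Again 0 were called in both lists.

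Genes of the interferon response showed the same sign without a call. All 13 guanylate-binding and immunity-related GTPases tested, which attack intracellular pathogens, had a negative estimate (median -0.77, with 0.38 unstimulated and -0.03 in H-CM), and 2 of them were lower at an unadjusted p under 0.05 (3.24% of all genes tested). Unstimulated means of Gbp4, Gbp5, Gbp6, Gbp9 and Tgtp1 were at most 0.663 CPM at either time. Gbp2 had 79.5, 227, 281 and 301 CPM at 12 h and 33.4, 99.2, 83.4 and 79.7 CPM at 24 h (-1.59, SE 0.58, adjusted p = 0.4), again with replicate 1 the lowest at both times. Iigp1 had 82.4, 675, 749 and 564 CPM and then 63.5, 467, 436 and 314 CPM, in the same pattern. Of 27 other interferon-stimulated genes 22 had a negative estimate (median -0.43, with 0.32 unstimulated and -0.14 in H-CM), while the 15 genes of MHC class I presentation lay near 0 (median -0.02).

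After the cell division lists, the complement and acute phase lists had the most positive medians among the pathway lists. Saa3, a serum amyloid A, had 10362, 7392, 8531 and 7740.2 CPM at 12 h and 19211, 15812, 16805 and 13179.6 CPM at 24 h. All 24 h libraries lay above those of 12 h, and the estimate of 0.93 (SE 0.63) was not called in the fit of all 6 groups (adjusted p = 0.811) but was when the 8 libraries were fitted alone (adjusted p = 0.00715). Lcn2, an iron-trapping defence protein, had 595, 613, 503 and 689 CPM and then 924, 1172, 1049 and 1119 CPM, also without overlap (0.83, SE 0.57, adjusted p = 0.813, and 0.0129 in the 8 libraries alone). The spread within H-CM was wide for both, with a mean of 272 CPM and an SD of 319 for Saa3 at 12 h, and all groups share the spread estimate of the 6-group fit. Whether this spread bears on these calls was not tested.

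Cp, the copper-carrying ferroxidase picked after its values were seen, had 135, 93.8, 148 and 113 CPM at 12 h and 413, 239.6, 328 and 250.02 CPM at 24 h, with no overlap (1.33, SE 0.33, adjusted p = 0.0586). Spp1, the secreted phosphoprotein osteopontin, had 201, 157, 211 and 211 CPM and then 413, 337, 295 and 267 CPM, with no overlap (0.75, SE 0.20, adjusted p = 0.0707), and it shares 309 of 1648 exon bases with Gm42793. Timp1, an inhibitor of matrix proteases, had 1354, 726, 879.5 and 1229 CPM and then 1239, 810.2, 853 and 1136 CPM, so that its times coincided (-0.05, SE 0.31, adjusted p = 0.986). The 13 acute phase genes, all of them among the 414 induced, had a median of 0.48 with 9 positive, beside -0.43 unstimulated and 0.72 in H-CM. Unstimulated means of Saa1, Saa2, Hp, Slpi and Nos2 were at most 0.48 CPM at either time, so their unstimulated estimates rest on few counts. The 7 complement genes had a median of 0.62, beside -0.10 and 0.25, and C3, their central component, an estimate of 1.38 (adjusted p = 0.561). Neither list had a called gene.

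**Figure D5:**
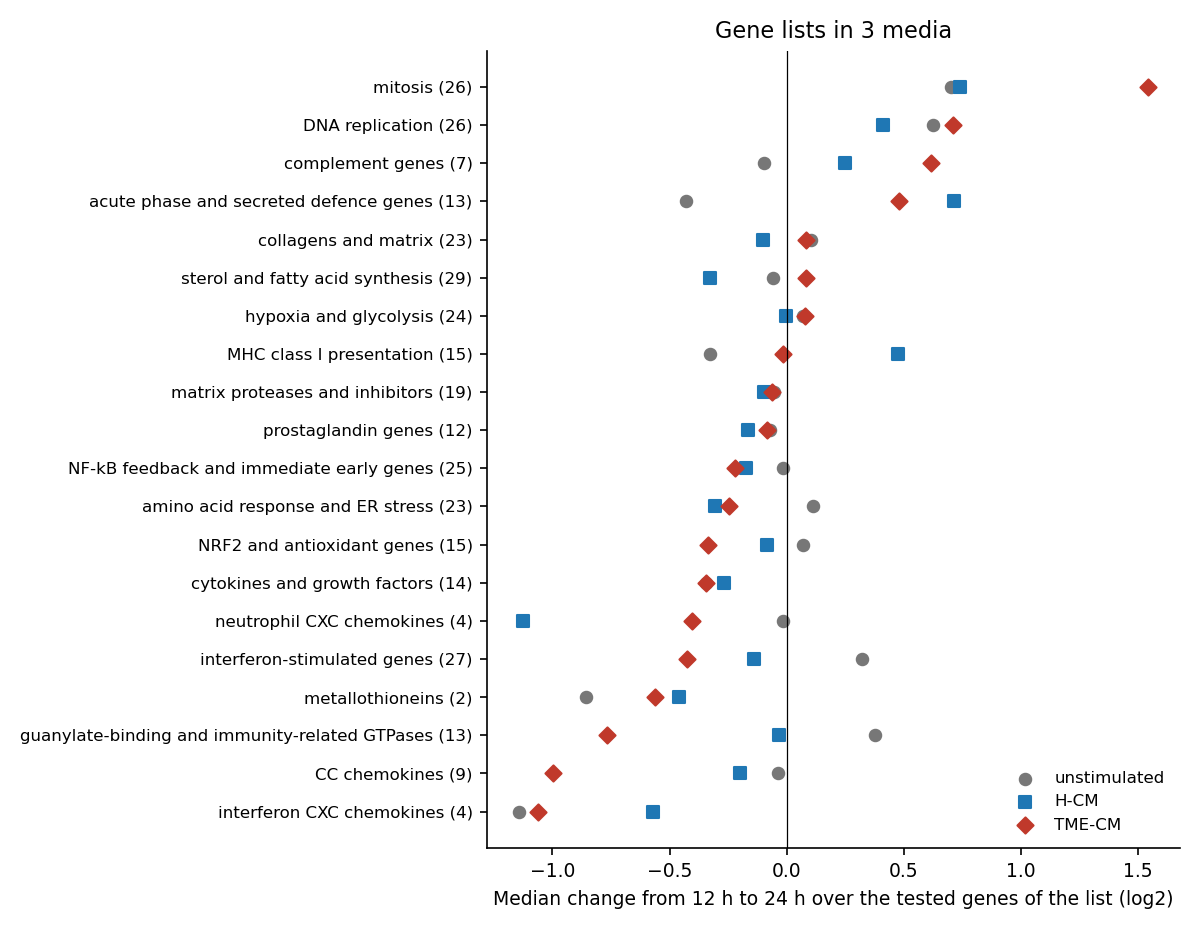
Median change from 12 h to 24 h (x axis, log2) over the tested genes of each list (y axis, number of genes in brackets) in unstimulated (circles), H-CM (squares) and TME-CM EGCs (diamonds). The mitosis list stands at 1.54 in TME-CM and 0.70 and 0.74 in the other media, and the interferon and chemokine lists lie on the left in TME-CM, at -0.40 to -1.06. Several genes of the chemokine, guanylate-binding and acute phase lists had few counts in unstimulated EGCs.

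In TME-CM, none of the genes of the remaining pathway lists was called. The 24 genes of hypoxia and glycolysis, the 29 of sterol and fatty acid synthesis and the 23 collagens and matrix genes each had a median of 0.08, the 15 NRF2 and antioxidant genes one of -0.33 with 5 lower at an unadjusted p under 0.05, and the 2 metallothioneins one of -0.56 with both lower at that threshold (3.24% of all genes tested). The medians of the last 2 lists were 0.07 and -0.86 in unstimulated EGCs and -0.09 and -0.46 in H-CM. The metallothionein Mt2 had an estimate of -0.72 (adjusted p = 0.112) and was called in the 8 libraries alone (adjusted p = 0.0384). Of genes known for other parts of the response, the estimates were -0.67 for the nitric oxide synthase Nos2 (adjusted p = 0.818), -0.26 for the interleukin-1 receptor Il1r1 (adjusted p = 0.875) and 1.12 for Chil1, a secreted chitinase-like protein (adjusted p = 0.554). None of these 3 was called.

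A second choice of induced genes came from the 6 h libraries, which the comparison of 24 h with 12 h does not use. At 6 h, 40 genes were called higher in TME-CM than in unstimulated EGCs (0.432% of the 9256 genes tested at that time), and 39 of them were tested here. Of these, 38 had a negative estimate from 12 h to 24 h, 3 fell (Icam1, Ptges and Mmp10, against 0.122% of all genes tested) and 10 were lower at an unadjusted p under 0.05 (against 3.24%), with a median of -0.53. The 1 positive estimate was that of Cp. The same 39 genes had a median of 0.24 in unstimulated EGCs, with 23 positive, and of -0.36 in H-CM, with 33 negative. The 9 genes called at 6 h over H-CM (0.0972%) all lie within these and all had a negative estimate (median -0.71). The 6 h libraries are uneven in depth, with 13518 counts in H-CM replicate 4 and 256453 in the shallowest unstimulated library. Of the 30 promoters found for the 39 genes, 12 held the interferon-stimulated response element (40%) and 7 the kappa B motif of NF-kB (23.3%), against 3.04% and 6.07% of tested genes.

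Whether a change was particular to TME-CM was tested as the difference between its change and that of another medium. Against unstimulated EGCs, 1 gene was called (0.00763%), Acta2, the smooth muscle actin at chr19:34241090-34255590. Acta2 had 2244, 2402, 2220.1 and 2278 CPM at 12 h of TME-CM and 1251, 1834, 1439.6 and 2007 CPM at 24 h, with no overlap, an estimate of -0.49 that was not itself called (SE 0.14, adjusted p = 0.11). Its mean moved from 3879 to 6170.3 CPM in unstimulated EGCs (0.67, adjusted p = 0.0864), and the difference of the changes was -1.16 (SE 0.19, adjusted p = 0.0148). The summed smooth muscle markers were 3746 to 4336 CPM at 12 h and 3164 to 4300 CPM at 24 h of TME-CM, and 7740 to 8514 and 11089 to 13133 CPM unstimulated. More of these cells and more of these transcripts per cell cannot be told apart, and the part of muscle-like cells in the result was not tested. Against H-CM, edgeR called 0 genes (436, or 3.33%, at an unadjusted p under 0.05), as did DESeq2 and limma voom, and the difference for Acta2 was -0.41 (adjusted p = 1).

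For the 66 genes that rose in TME-CM, 61 had a positive estimate in unstimulated EGCs (median 0.61, 0 called) and 65 in H-CM EGCs (median 0.68, 1 called). The difference of the changes was positive for 64 of 66 against either medium (medians 0.84 and 0.76), with 0 called, and since the 66 were chosen on the TME-CM libraries this direction is a description. All libraries of a time were harvested at that time, so the age of the culture and anything done to one set of libraries cannot be told apart from hours of exposure within a medium.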

How the data were processed

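RNA of EGCs was sequenced in 36 libraries, of which the 24 of 12 h and 24 h were fitted together. The authors prepared libraries with the QuantSeq 3′ mRNA kit, removed adapters with fastq-mcf, checked reads with FastQC 0.11.7 and aligned them by HISAT2 to the mm10 genome. Reads with more than 1 locus were dropped, and HT-seq Count gave the counts (SAMtools 1.5 is also named). The deposited values are raw counts per gene symbol. The annotation, strand setting and any use of molecular identifiers are not given in the sources used here.

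Counts were tested in R 4.3.3 with edgeR 4.0.16 (TMM, filterByExpr with a minimum count of 10, robust quasi-likelihood fit, 1 mean per group), with Benjamini-Hochberg adjustment over the 13105 genes kept and calls at an adjusted p under 0.05. No library repeated another. The 12 libraries of 6 h were fitted separately. The members, gene lists and tests were chosen with earlier results of these data known.

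Genes were named by these rules: the 10 largest changes in each direction among called genes with at least 5 CPM and no overlap; the same among induced genes, with the 8 uncalled ones of highest level; up to 4 called genes in each direction and 2 uncalled ones per list; up to 6 per direction in the tests between media; and 14 genes known from the study or earlier results. Genes outside these were picked after their values were seen. The exceptions are the remaining genes that fell in TME-CM and those called in the other media, which are given in full. Alternatives were DESeq2's size factors, no filter, DESeq2 1.42.0, limma 3.58.1 voom, Yam1 left out, a replicate block, all 36 libraries, only the groups compared, other definitions of induced genes and each library left out. Leaving out the 3 libraries that stand apart was added after the data were seen. Fits were tested on simulated data. Positions are from a GENCODE annotation of GRCm38. Of 144 genes looked up 143 matched, 35 of which share exon bases with a gene on the opposite strand and 10 with one on the same strand.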

Additional observations from a re-analysis of the deposited data

Results flagged for a closer look

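A Dixon test on 206 groups of 4 TME-CM libraries, for single genes and summed lists, put 15 extreme values above its critical value, while chance gives about 1 in 20 groups. The ratio given is the gap to the nearest library over the range of the group. At 12 h, Troap was far below the others in replicate 2 (0.424 CPM, ratio 0.852). Values far above the others were those of Kif2c in replicate 4 (6.96 CPM, 0.92), Dcn in replicate 4 (2547 CPM, 0.895), Ier3 in replicate 1 (954 CPM, 0.894) and Lum in replicate 1 (130 CPM, 0.929). The summed fibroblast markers (2878 CPM, 0.938) and the summed DNA replication genes (757 CPM, 0.879) of 12 h were also far above the others in replicate 4.

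At 24 h, replicate 2 lay far above the others for Wbp5 (1961 CPM, ratio 0.863), Krt18 (2.44 CPM, 0.904) and the Yam1 share of counts (35.1%, 0.934), and far below them for Rrm1 (92.3 CPM, 0.852) and Il1r1 (39.9 CPM, 0.891). Replicate 1 lay far below the others for Cxcl10 (23 CPM, 0.85) and far above them for Il6 (24.7 CPM, 0.914) and Mt2 (942 CPM, 0.863). The change of Acta2 from 12 h to 24 h in TME-CM minus that in unstimulated EGCs was -1.16 on the log2 scale, a difference between media that passed the test.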

How the results depend on the processing

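The count of 82 calls between 12 h and 24 h of TME-CM was 175 with no filter (118 higher, 57 lower), 165 with DESeq2 (119 and 46), 199 with voom (145 and 54), 127 without the 3 libraries that stand apart (95 and 32) and 2 with all 36 libraries, and 43 to 90 with single libraries left out (43, 49 and 54 without TME-CM 24 h replicates 4, 1 and 3, and 52 without TME-CM 12 h replicate 1). The 6 induced genes called became 36 with no filter, 14 with DESeq2, 35 with voom, 0 with all 36 libraries, 12 with only the groups compared, 11 without the 3 libraries and 2 to 10 with single libraries left out, among them 3 without TME-CM 12 h replicate 1, TME-CM 24 h replicate 1 or H-CM 24 h replicate 4. The 414 induced genes became 642 with voom, 185 with all 36 libraries and 354 to 456 with single libraries left out. The 15 called mitosis genes became 1 with all 36 libraries and 12 to 16 with single libraries left out. The 3 called DNA replication genes became 5 with no filter or DESeq2, 9 with voom, 0 with all 36 libraries, 1 with only the groups compared and 1 to 4 with single libraries left out. In unstimulated EGCs, 2 calls became 20 with DESeq2, 0 with all 36 libraries or without the 3 libraries, and 0 to 2 with single libraries left out. In H-CM, 1 call became 22 with DESeq2, 0 with all 36 libraries or only the groups compared, and 0 to 1 with single libraries left out. The 1 gene that differed from the change in unstimulated EGCs became 24 with no filter, 5 with DESeq2 or voom, 0 with all 36 libraries, 3 with only the groups compared or without the 3 libraries, and 0 to 4 with single libraries left out, and the 0 against H-CM became 4 with no filter and stayed 0 with each library left out. At 6 h, 40 and 9 induced genes became 75 and 40 with no filter, and 18 to 59 and 2 to 20 with single libraries left out.

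The sign turned for 0 of the 29 named genes called and for 14 of the 62 not called. With voom the log2 changes that turned were 0.055 for Ngfr, 0.25 for Krt18, 0.60 for Krt20 and -0.083 for Ntsr1, and without the 3 libraries -0.068 for Cxcl5, -0.13 for Csf1, -0.083 for Hsp90b1, -0.039 for Gap43 and -0.035 for Ntsr1. With single libraries left out, the ranges that crossed 0 were -0.19 to 0.10 for Timp1, -0.19 to 0.25 for Cxcl5, -0.13 to 0.20 for Csf1, -0.22 to 0.10 for Ptgs2, -0.0067 to 0.35 for Tapbp, -0.080 to 0.19 for Hsp90b1, -0.11 to 0.0021 for Sparc, -0.14 to 0.054 for Ngfr, -0.086 to 0.13 for Gap43, -0.054 to 0.29 for Uchl1, -0.21 to 0.91 for Lyz2, -0.66 to 0.62 for Krt20 and -0.028 to 0.25 for Ntsr1. Of the 29 named genes called, 28 lost the call under some alternative, all but Top2a, and 16 of the 62 not called passed under some. The cause of these shifts was not tested. With a replicate block, TME-CM had 99 calls, 13 of them induced genes and 5 of DNA replication, unstimulated EGCs 4 and H-CM 0, and the change of Cxcl5 was -0.015. The correlations of same-numbered libraries in TME-CM were 0.136, 0.184, 0.205 and 0.0362. Here 3 of the 4 libraries of 12 h correlated best with their own number. In H-CM the correlations were 0.191, 0.0589, 0.0737 and 0.103, each the best for its 12 h library. In unstimulated EGCs they were -0.0626, -0.0880, 0.0276 and 0.171. The main fit did not pair samples by number, and whether the numbers mark shared cultures was not tested. Depth limits the genes of a few CPM, such as Troap.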
